A study of Mus musculus with 6 samples.

Results

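The transcripts described here encode 10 chains of interleukin and GM-CSF receptors, out of 53735 genes in the deposited table: Il1rl1, Il1rap, Il18r1, Il3ra, Csf2ra, Csf2rb, Csf2rb2, Il6ra, Il4ra and Il2rg. They were taken by gene symbol, and each symbol matched 1 row. Their levels were measured by RNA sequencing in leukemia stem cells, the cells of a leukemia that can regrow it, with 3 libraries from liver and 3 from bone marrow. The mice are labelled as strain C57, male and untreated, and the cells were taken 13 days after leukemia cells had been transplanted. Neither the driver of the leukemia nor the gate that isolated the cells is named in the labels. The labels speak of technical replicates and do not say whether separate animals were used. A p-value here therefore reflects the spread among libraries alone.

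Cytokine receptors of this kind work as pairs or larger complexes, in which 1 chain gives specificity for a ligand and a partner is shared. The interleukin-33 receptor joins Il1rl1, also called ST2, to the accessory chain encoded by Il1rap, and signals through MyD88 to NF-kB. The interleukin-3 and GM-CSF receptors join an alpha chain to a beta chain and signal through JAK2 and STAT5. Mice carry a second beta chain gene, Csf2rb2, whose product works with interleukin-3 alone, whereas the product of Csf2rb serves interleukin-3, interleukin-5 and GM-CSF. In normal blood formation Il1rl1 and the beta chains are well known on mast cells, basophils and eosinophils.

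Libraries held 9731597 to 13819061 reads in liver and 15404687 to 18478084 in bone marrow, so that 1 read was worth 0.988 to 1.42 normalized counts in liver and 0.744 to 0.898 in bone marrow. A normalized count is a read count divided by a size factor of its library. The cells carried transcripts of the stem and progenitor markers Ly6a, Kit and Cd34, and of the general leukocyte gene Ptprc. Kit stood at 647 to 658 normalized counts in liver and 419 to 654 in bone marrow, Cd34 at 1048 to 1143 in liver and 1179 to 2148 in bone marrow without overlap, and Ly6a at 713 to 1633 in liver and 1516 to 2826 in bone marrow. Hoxa9 stood at 2480 to 2841 in liver and 2210 to 2438 in bone marrow without overlap, and Meis1 at 1266 to 2469 and 1914 to 2418. The limma adjusted p was 0.32 for Kit, 0.24 for Cd34, 0.27 for Ly6a, 0.21 for Hoxa9 and 0.59 for Meis1. The part of these genes in the receptor differences was not tested. The T cell genes Cd3e and Cd4, the B cell gene Ms4a1, the Kupffer cell genes Clec4f and Vsig4 and 7 of 9 hepatocyte genes, Alb and Ttr among them, had 0 reads in all 6 libraries, which allows up to 3 reads per library. The hepatocyte gene Apoa1, in contrast, had 2285 to 3003 normalized counts in liver and 2645 to 5659 in bone marrow. Xist stood at 6229 normalized counts in liver replicate 1 and 4860 in bone marrow replicate 1, against 1.42 and 4.28 in replicate 2 of liver and bone marrow, although every library is labelled male. The sum of 4 transcripts of the Y chromosome (Eif2s3y, Uty, Kdm5d and Ddx3y) was 0 in liver replicate 1 and 145 in bone marrow replicate 1, against 2675 and 2987 in replicate 2 of liver and bone marrow. Replicates 1 and 2 of a tissue are thus not repeat libraries of 1 source. Replicate 3 lay between them, with Xist at 2425 in liver and 2486 in bone marrow and Y-linked sums of 1634 in liver and 1552 in bone marrow. Whether replicate 3 has a source of its own or combines those of replicates 1 and 2 was not tested, so n = 3 may overstate the number of independent sources. The log2 fold change of each receptor chain tested is therefore also given without both libraries numbered 1 and without both numbered 3.

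Of the 10 receptor chains, 9 were abundant enough to be tested, averaging 10 or more normalized counts over the 6 libraries, and 3 were lower in liver at an adjusted p under 0.05: Il1rl1, Csf2rb2 and Il4ra. Over all 14298 genes tested, limma called 0.594% lower in liver and 0.420% higher. DESeq2 called 5 chains lower, adding Il3ra and Csf2rb, where it called 2.43% of all genes lower and 1.92% higher. No chain was called higher in liver by limma, edgeR or DESeq2. At an unadjusted limma p under 0.05, 6 chains were lower and 0 higher, beside 8.04% and 7.65% of all genes. In 5 of the 9 chains (Il1rl1, Csf2rb2, Il4ra, Il3ra and Csf2rb) every liver library lay below every bone marrow library, a pattern found in 10.9% of all genes tested. The opposite pattern was found in 0 chains and in 11.4% of all genes tested. The median log2 fold change of the 9 was -0.54, beside -0.0092 for all genes tested. With the replicate number as a further term, limma called 5 chains lower: Il1rl1, Csf2rb2, Il4ra, Csf2rb and Il2rg. That fit called 2.26% of all genes lower and 1.41% higher. Because RNA was measured in bulk, fewer cells of a type and less RNA per cell cannot be told apart.

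**Figure D1:**
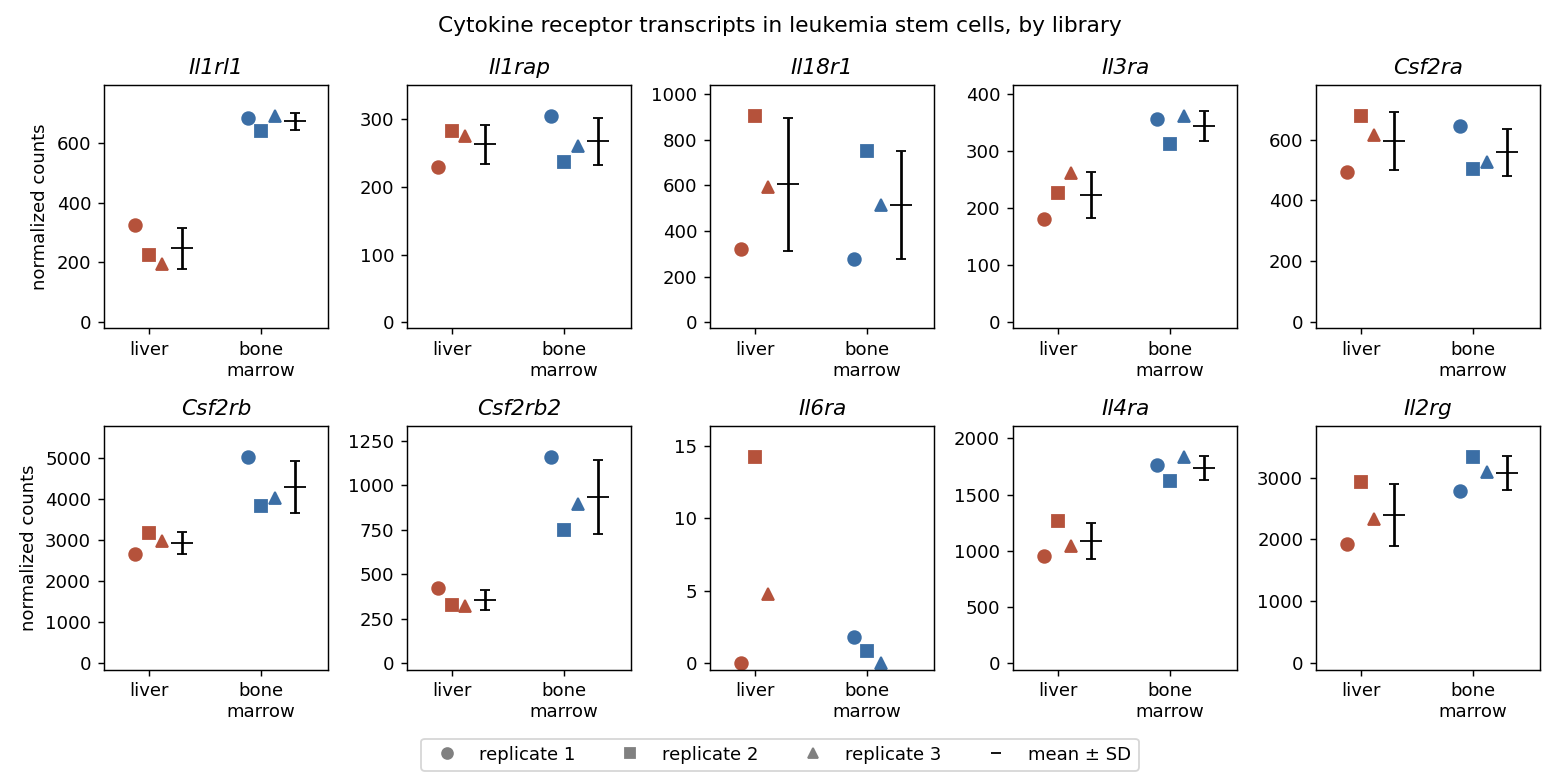
Normalized counts (vertical axes, 1 scale per panel, starting just below 0) of the 10 receptor chain transcripts in 3 liver and 3 bone marrow libraries; symbols mark the replicate number, and black bars the mean ± SD, left out for Il6ra. Il1rl1, Csf2rb2, Il4ra, Il3ra and Csf2rb show no overlap between tissues, while Il18r1 spreads over a similar range in both.

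The chains differed widely in level. Divided by exon length, Il2rg was the most abundant, with 1437 ± 301 normalized counts per kb in liver and 1837 ± 165 in bone marrow (SD, n = 3 each). Il2rg shares 728 exon bases with Gm20489, so that its value can include reads of that gene. Exon lengths are unions over transcripts and take no account of which forms were used. Csf2rb came next, with 562 ± 51.3 per kb in liver and 822 ± 122 in bone marrow. In liver Csf2ra stood above Il4ra, with 265 to 365 per kb against 182 to 241, and Csf2rb2 (75.2 ± 11.99 per kb) and Il1rl1 (36.2 ± 9.96) lay below Il18r1 (126 ± 60.6) on average, although Il18r1 in liver replicate 1 (66.9 per kb) was below every liver value of Csf2rb2. In bone marrow Il4ra (331 ± 20.5 per kb) and Csf2ra (300 ± 41.3 per kb) followed, and their libraries overlapped (309 to 349 and 270 to 347 per kb). Csf2rb2, Il3ra, Il18r1 and Il1rl1 formed the middle of the order there, at 197, 135, 107 and 98.2 per kb. The bone marrow libraries of Il18r1 (57.8 to 156 per kb) overlapped those of Il3ra and Il1rl1, whereas Csf2rb2 (158 to 244) lay above Il3ra in each of them. Il1rap had the lowest mean of the 9 in both tissues, at 30.6 ± 3.32 per kb in liver and 31.1 ± 4.06 in bone marrow. In liver, the values of Il1rl1 (28.4 to 47.4 per kb) overlapped those of its partner Il1rap (26.8 to 32.9), whereas in bone marrow Il1rl1 (93.6 to 101 per kb) lay above Il1rap (27.5 to 35.5) in every library.

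**Figure D2:**
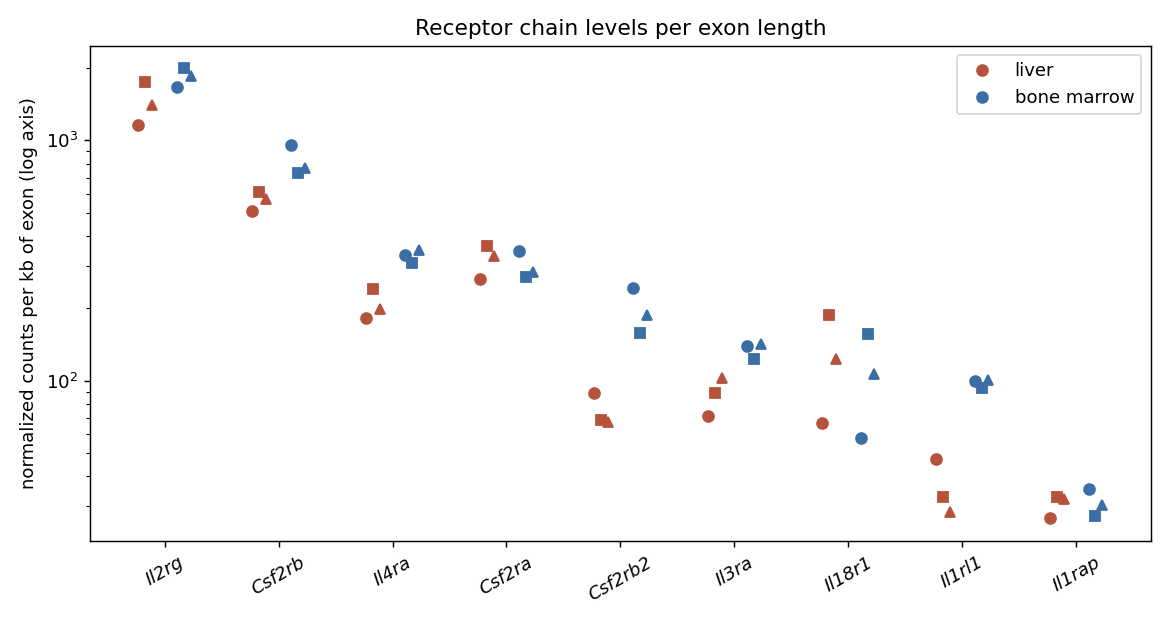
Normalized counts per kb of exon (log axis) of the 9 tested receptor chains, ordered by their bone marrow mean, in 3 liver and 3 bone marrow libraries; symbols mark the replicate number as in the plot of counts by library. Il2rg stands at 1157 to 1755 per kb in liver and Il1rap at 26.8 to 32.9.

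Il1rl1, the specific chain of the interleukin-33 receptor, fell along with Csf2rb2, and these chains had the largest changes of the 9, in an order that turned with the libraries used. Per-library values are given here and below for replicates 1, 2 and 3 in that order. Il1rl1 had 324, 225 and 194 normalized counts in liver, against 684, 640 and 690 in bone marrow. All liver libraries were below all bone marrow libraries. The means were 248 ± 68.1 in liver and 671 ± 27.5 in bone marrow (SD, n = 3 each), so that liver stood at 36.9% of bone marrow, on 647 and 2437 reads. The log2 fold change was -1.47 ± 0.18 (SE), with a 95% interval of -1.90 to -1.04 and a limma adjusted p of 0.024. The call was lost without liver replicate 3 and without bone marrow replicate 1, 2 or 3, with a log2 fold change between -1.68 and -1.31 over the 6 fits that left out 1 library and an adjusted p of up to 0.18. It was -1.67 (adjusted p = 0.0033) without both libraries numbered 1 and -1.29 (0.82) without both numbered 3. The membrane and soluble forms of ST2 come from the same gene, and the gene counts do not separate them.

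The gene lies on chromosome 1 from 40429570 to 40465415 on the plus strand (GENCODE M21, GRCm38; the authors' own build is not given in the sources used here), and it shares no exon bases with another gene. RefSeq lists a distal and a proximal start for it. The 250 bases before each start are shown because this gene passed with one of the largest changes, with matches to the GATA motif (AGATAA or TGATAA, both strands) in capitals.

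Il1rl1 distal start, chr1:40429320-40429569, plus strand, GRCm38.p6: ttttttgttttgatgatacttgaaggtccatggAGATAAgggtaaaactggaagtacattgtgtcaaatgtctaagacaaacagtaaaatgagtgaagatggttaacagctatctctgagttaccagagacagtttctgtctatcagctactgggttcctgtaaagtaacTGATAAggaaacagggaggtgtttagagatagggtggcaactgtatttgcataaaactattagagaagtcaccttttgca
Il1rl1 proximal start, chr1:40439379-40439628, plus strand, GRCm38.p6: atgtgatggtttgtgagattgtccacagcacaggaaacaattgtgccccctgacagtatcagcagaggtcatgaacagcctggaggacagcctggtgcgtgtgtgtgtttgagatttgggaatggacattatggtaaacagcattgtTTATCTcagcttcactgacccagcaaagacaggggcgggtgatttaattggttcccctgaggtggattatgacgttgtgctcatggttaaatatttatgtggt

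The distal window held 2 matches, ending 211 and 74 bases before the start, and the proximal window 1, TTATCT, which is AGATAA on the other strand. Of 32851 windows of this length before RefSeq starts, 16.6% held at least 1 match. Neither window matched TTCNNNGAA, the STAT motif, which 7.0% of all windows held. Gata2, a GATA factor gene of mast cells and progenitors, had 10349, 13513 and 12203 normalized counts in liver, against 13502, 14674 and 13900 in bone marrow (log2 fold change -0.23, limma adjusted p = 0.30). Which of the starts was used was not measured.

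Il1rap, the accessory chain that Il1rl1 shares with the interleukin-1 receptor, had 230, 283 and 276 normalized counts in liver, against 305, 236 and 261 in bone marrow. The tissues overlapped, and the log2 fold change of -0.02 had a 95% interval of -0.36 to 0.32 (limma adjusted p = 0.96). Its sign was positive with quantile normalization (0.0031) and without both libraries numbered 1 (0.17, adjusted p = 0.61), and without both numbered 3 it was -0.07 (0.97).

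Il18r1, the ligand-binding chain of the interleukin-18 receptor, had 322, 905 and 591 normalized counts in liver, against 278, 753 and 514 in bone marrow. Replicate 1 was lowest and replicate 2 highest in both tissues, and the spread within a tissue exceeded the difference between them. Between same-numbered libraries, liver was higher by 0.21, 0.27 and 0.20 log2 units. With the replicate number as a term, the 95% interval was 0.0090 to 0.44 (limma adjusted p = 0.24). The log2 fold change was 0.23, with a 95% interval of -0.82 to 1.27 (limma adjusted p = 0.86), and it was -0.12 without liver replicate 2 and -0.16 without bone marrow replicate 1. Without both libraries numbered 1 it was 0.23 (adjusted p = 0.66), and without both numbered 3 it was 0.24 (0.97). Xist, given above, ran the other way, highest in replicate 1 and lowest in replicate 2 of both tissues, and its part in the Il18r1 spread was not tested.

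Il1rl1 and Il18r1 are neighbours in a row of 6 receptor genes on chromosome 1, with 136 bases between the end of the first and the start of the second in GENCODE M21. The gene beyond Il18r1 is Il18rap, the accessory chain of the interleukin-18 receptor. It had 531, 1002 and 759 normalized counts in liver, against 533, 600 and 580 in bone marrow (log2 fold change 0.37, limma adjusted p = 0.46). Il1r2, the interleukin-1 decoy receptor, had a log2 fold change of -0.26 (limma adjusted p = 0.84). The signalling interleukin-1 receptor gene Il1r1, at 0 to 7.22 normalized counts in liver and 5.14 to 8.08 in bone marrow, and the interleukin-36 receptor gene Il1rl2 were too low to be tested. Of the 4 tested genes of the row, Il1rl1 was the 1 that passed.

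**Figure D3:**
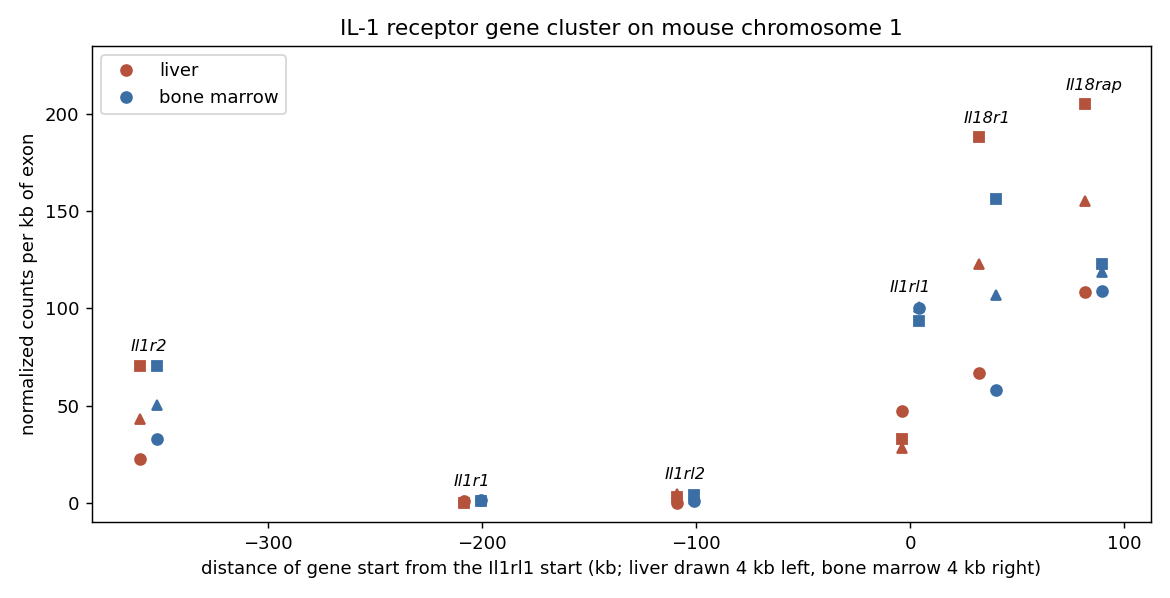
Normalized counts per kb of exon (vertical axis) of the 6 genes of the interleukin-1 receptor row on chromosome 1, placed by the distance of their start from the Il1rl1 start in kb, with liver points drawn left of bone marrow points; symbols mark the replicate number as in the plot of counts by library. Il1rl1 is the gene whose tissues separate, at 28.4 to 47.4 per kb in liver and 93.6 to 101 in bone marrow, while Il18r1 and Il18rap overlap.

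Among the chains of the interleukin-3 and GM-CSF receptors, limma called 1 lower, the beta chain gene restricted to interleukin-3. DESeq2 also called Csf2rb and Il3ra lower. Csf2rb2 had 422, 327 and 320 normalized counts in liver, against 1158, 747 and 893 in bone marrow. No liver library reached the lowest bone marrow library. The means were 356 ± 56.8 in liver and 933 ± 209 in bone marrow (SD, n = 3 each), on 923 and 3363 reads, and liver stood at 38.2% of bone marrow. The log2 fold change was -1.37 ± 0.18 (SE), with a 95% interval of -1.79 to -0.95 and a limma adjusted p of 0.027. Of the fits that left out 1 library, the call held without liver replicate 1 and was lost without each of the other 5 (log2 fold change -1.52 to -1.21, adjusted p of up to 0.18). Without both libraries numbered 1 it was -1.33 (adjusted p = 0.0044), and without both numbered 3 it was -1.32 (0.87).

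Csf2rb, the beta chain gene shared by interleukin-3, interleukin-5 and GM-CSF, was far more abundant. It had 2654, 3185 and 2981 normalized counts in liver, against 5023, 3834 and 4028 in bone marrow. The tissues did not overlap, yet the log2 fold change of -0.54 (95% interval -0.81 to -0.28) missed the threshold at a limma adjusted p of 0.083, and it was -0.35 (0.055) without both libraries numbered 1 and -0.59 (0.87) without both numbered 3. DESeq2 on the recovered reads gave an adjusted p of 7.4e-04 for it.

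The Csf2rb and Csf2rb2 genes lie side by side on chromosome 15, from 78325752 to 78353847 on the plus strand and from 78282507 to 78305721 on the minus strand (GENCODE M21, GRCm38). Their coding sequences were 95.2% identical over 2631 aligned bases, with a longest identical run of 242 bases. The first 90 coding bases of each are shown because they make plain how alike the genes are, with the differing bases in capitals.

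Csf2rb: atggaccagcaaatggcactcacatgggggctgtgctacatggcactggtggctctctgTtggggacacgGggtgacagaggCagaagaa
Csf2rb2: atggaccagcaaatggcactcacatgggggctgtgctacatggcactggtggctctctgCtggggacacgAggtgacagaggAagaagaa

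Over their whole transcripts, 18.4% of all 50-base windows of Csf2rb occurred unchanged in Csf2rb2 and 19.0% of those of Csf2rb2 in Csf2rb. A read lying wholly within an identical stretch cannot be placed, whereas a longer read can reach a differing base. The shares of windows are therefore not shares of reads. The authors' treatment of reads that cannot be placed is not known here, and the split between the genes is uncertain to an unknown extent. Csf2rb2 made up 13.7%, 9.31% and 9.70% of the reads of the pair in liver, with exact binomial 95% intervals of 12.5% to 14.98%, 8.19% to 10.5% and 8.62% to 10.9%. In bone marrow its share was 18.7%, 16.3% and 18.1%, with intervals of 17.8% to 19.7%, 15.3% to 17.3% and 17.2% to 19.1%. These intervals cover counting error only. The difference of liver minus bone marrow was -6.82 percentage points, without overlap between tissues, and an exact two-sided permutation test over the libraries gave p = 0.10, the smallest that 3 against 3 allows. Summed into 1 gene, the pair had 3076, 3512 and 3302 normalized counts in liver, against 6182, 4580 and 4921 in bone marrow (log2 fold change -0.66, limma adjusted p = 0.051).

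The 250 bases before the RefSeq start of Csf2rb2 are shown because they held a match to each of the motifs searched, in capitals, namely GATA (here TTATCA, the other strand) and STAT.

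Csf2rb2 start, chr15:78305722-78305971, minus strand, GRCm38.p6: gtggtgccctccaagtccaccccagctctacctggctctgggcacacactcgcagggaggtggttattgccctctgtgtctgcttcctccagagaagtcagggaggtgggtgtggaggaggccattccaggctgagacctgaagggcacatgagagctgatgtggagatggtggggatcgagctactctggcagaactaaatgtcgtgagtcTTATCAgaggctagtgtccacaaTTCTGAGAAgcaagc

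The GATA match ended 32 bases before the start and the STAT match 6 bases before it, and they did not overlap. Over all windows the shares with a match were those given above, 16.6% and 7.0%. Of the 12 windows of 9 receptor chains searched, 4 held a GATA match (both of Il1rl1, Csf2rb2 and Il6ra) and 2 a STAT match (Csf2rb2 and 1 of Il18r1, a chain that was not called).

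Il3ra, the alpha chain gene of the interleukin-3 receptor, had 182, 227 and 261 normalized counts in liver, against 356, 313 and 362 in bone marrow. The tissues did not overlap, and the log2 fold change was -0.63 ± 0.16 (SE), at a limma adjusted p of 0.12 and a DESeq2 adjusted p of 0.028. Without both libraries numbered 1 it was -0.47 (limma adjusted p = 0.19), and without both numbered 3 it was -0.71 (0.87). Csf2ra, the alpha chain gene of the GM-CSF receptor, had 492, 678 and 617 normalized counts in liver, against 646, 502 and 526 in bone marrow. Its tissues overlapped, and the log2 fold change of 0.09 had a 95% interval of -0.26 to 0.44 (limma adjusted p = 0.83). It was -0.0098 without liver replicate 2, 0.33 (adjusted p = 0.19) without both libraries numbered 1 and 0.02 (0.99) without both numbered 3. The interleukin-5 alpha chain gene Il5ra had 0 reads in 5 of the 6 libraries and 4.28 normalized counts in bone marrow replicate 2.

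Il4ra, the chain that binds interleukin-4 and pairs with Il2rg or with Il13ra1, was lower in liver. It had 957, 1269 and 1043 normalized counts in liver, against 1762, 1623 and 1834 in bone marrow. Every liver library was below every bone marrow library. The means were 1090 ± 161 in liver and 1740 ± 108 in bone marrow (SD, n = 3 each), so that liver stood at 62.7% of bone marrow. The log2 fold change was -0.68 ± 0.11 (SE), with a 95% interval of -0.94 to -0.42 and a limma adjusted p of 0.043. The call held without liver replicate 1 or 2 and was lost without liver replicate 3 and without each bone marrow library (log2 fold change -0.80 to -0.59 over the 6 fits, adjusted p of up to 0.24). It was also lost without both libraries numbered 1 (-0.58, adjusted p = 0.058) and without both numbered 3 (-0.62, 0.87). The 250 bases before the RefSeq start of Il4ra (chr7:125552021-125552270, plus strand, GRCm38.p6) matched neither motif. In GENCODE M21 the gene shares 571 exon bases with Gm44876, as Il1rap does 552 with Gm20319 and Il2rg 728 with Gm20489. Reads of such bases can come from either gene, and the partner genes and their strands were not analysed here.

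Il2rg, the X-linked common gamma chain gene of the receptors for interleukin-2, interleukin-4, interleukin-7 and their relatives, had 1932, 2931 and 2335 normalized counts in liver, against 2780, 3329 and 3096 in bone marrow. The tissues overlapped, since liver replicate 2 lay above bone marrow replicate 1. Between same-numbered libraries, the log2 difference of liver minus bone marrow was -0.52, -0.18 and -0.41. With the replicate number as a term, the 95% interval was -0.54 to -0.20 (limma adjusted p = 0.042). The log2 fold change was -0.37 (95% interval -0.71 to -0.03) at a limma adjusted p of 0.29. It was -0.30 (adjusted p = 0.23) without both libraries numbered 1 and -0.35 (0.88) without both numbered 3. Il13ra1, the other partner of Il4ra, was low, at 11.9 to 46.9 normalized counts in liver and 15.6 to 30.8 in bone marrow.

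Il6ra, the interleukin-6 binding chain, was close to absent from these libraries. It had 0, 14.2 and 4.82 normalized counts in liver, against 1.80, 0.856 and 0 in bone marrow, which rest on 14 and 3 reads. It was not tested. Its signalling partner gp130, encoded by Il6st, had 21.7, 22.7 and 25.3 normalized counts in liver, against 41.3, 64.2 and 55.0 in bone marrow. The tissues did not overlap for Il6st, and its log2 fold change of -1.15 had a limma adjusted p of 0.12.

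**Figure D4:**
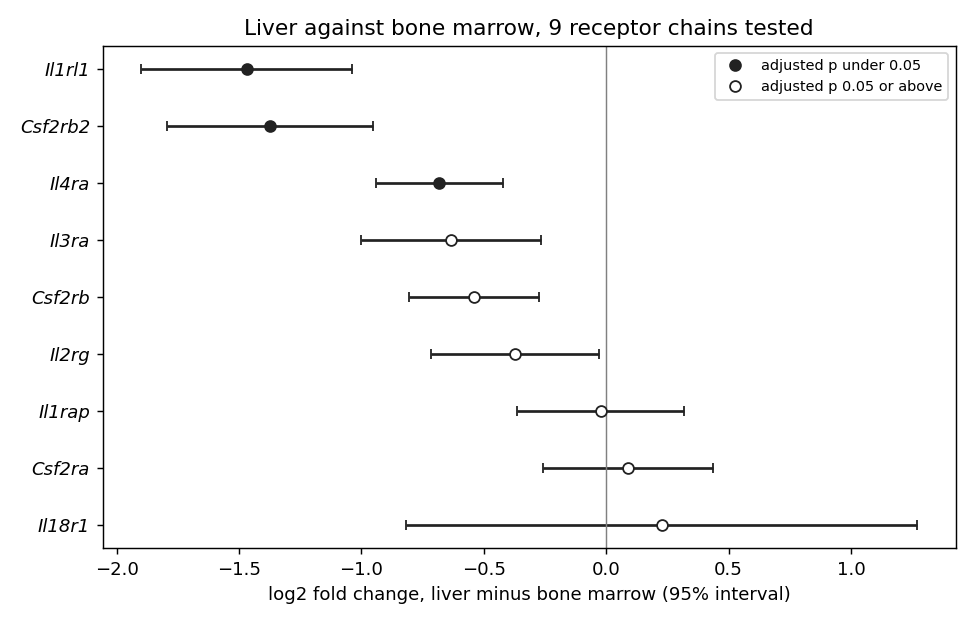
Log2 fold change of liver minus bone marrow with its 95% interval (horizontal axis) for the 9 receptor chains tested with limma; filled points passed an adjusted p under 0.05. Il1rl1, Csf2rb2 and Il4ra passed, and the intervals of Il1rap, Csf2ra and Il18r1 span 0.

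Other cytokine and growth factor receptor chains were read from lists that also hold these 10. Among 46 further chains, 35 were tested, 1 was lower in liver with limma, and none was higher with limma, edgeR or DESeq2. DESeq2 also called Tgfbr2, a TGF-beta receptor chain gene, lower. Over all genes tested, limma called 0.594% lower and DESeq2 2.43%. At an unadjusted limma p under 0.05, 6 of these chains were lower and 1 higher (Kit), beside 8.04% and 7.65% of all genes. In 4 of the 35 every liver library lay below every bone marrow library, a share of 11.4% beside 10.9% of all genes tested. The 1 that limma called was Crlf2, which encodes the receptor chain for TSLP, an epithelial cytokine. Crlf2 had 1031, 1085 and 1045 normalized counts in liver, against 1982, 1610 and 1717 in bone marrow (log2 fold change -0.74, limma adjusted p = 0.022). The median log2 fold change of the 35 was -0.21, beside -0.54 for the 9 described above. Il2ra, the interleukin-2 receptor alpha chain gene, had 1849, 3922 and 2915 normalized counts in liver, against 3441, 5369 and 4510 in bone marrow (log2 fold change -0.66, limma adjusted p = 0.30). Kit, the receptor of stem cell factor, had a log2 fold change of 0.38 (limma adjusted p = 0.32).

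**Figure D5:**
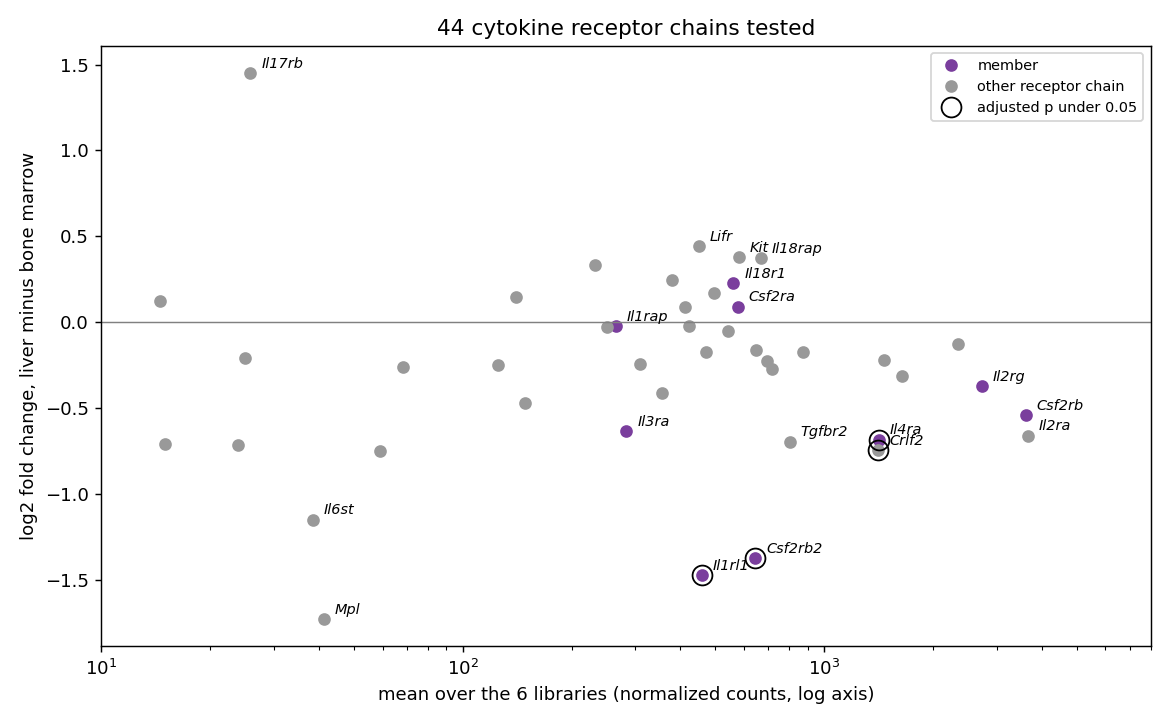
Log2 fold change of liver minus bone marrow (vertical axis) against the mean over the 6 libraries in normalized counts (log axis) for the 44 cytokine receptor chains tested, with the 9 described here in purple, the other 35 in grey, and rings around the 4 at an adjusted p under 0.05. The 4 ringed chains, Il1rl1, Csf2rb2, Crlf2 and Il4ra, all lie below 0.

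Of the ligands of these receptors, Il33 and Il3 were at or near 0 in the cells themselves, whereas Il4, Il6 and Il1b were present. Of 16 ligand genes 7 were tested and none passed with limma, edgeR or DESeq2. At an unadjusted limma p under 0.05, 1 was lower and 0 higher, beside 8.04% and 7.65% of all genes tested. Il33 had 0 reads in all 6 libraries, and Il3 had 1.42 normalized counts in liver replicate 2 and 0 elsewhere. Csf2, the gene of GM-CSF, had 79.0, 27.0 and 63.8 normalized counts in liver, against 20.7, 59.1 and 26.0 in bone marrow. Il6 had 158, 263 and 210 in liver, against 303, 387 and 277 in bone marrow, with no overlap, a log2 fold change of -0.63 and a limma adjusted p of 0.22.

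Downstream of the receptors, no gene passed with limma or edgeR. Among 18 genes between the interleukin-1 family receptors and NF-kB the median log2 fold change was -0.05, with 4 lower and 0 higher at an unadjusted p under 0.05, and DESeq2 called none. At that level 8.04% of all genes tested were lower and 7.65% higher, and DESeq2 called 2.43% lower and 1.92% higher. These shares also stand beside the counts of the next lists. Irak2, a kinase recruited by MyD88, had the lowest value, -0.89 (limma adjusted p = 0.24). Among 20 genes of JAK-STAT and beta chain signalling the median was -0.09, with 3 lower and 0 higher at that unadjusted level. DESeq2 called 1 of them, the adaptor gene Gab2, which had 1010, 741 and 738 normalized counts in liver, against 1308, 1105 and 1109 in bone marrow (log2 fold change -0.51, limma adjusted p = 0.14). Jak2 (-0.11), Stat5a (-0.08) and Stat5b (0.08) had log2 fold changes near 0. Among 12 feedback genes and STAT5 targets the median was -0.14, with 3 lower and 0 higher at an unadjusted p under 0.05. Cish, a STAT5 target that dampens receptor signalling, was the 1 that DESeq2 called. It had 3754, 5957 and 5361 normalized counts in liver, against 6493, 7588 and 6942 in bone marrow (log2 fold change -0.50, limma adjusted p = 0.20). Socs1 and Socs3, the other feedback genes lower at that unadjusted level, had log2 fold changes of -0.78 and -0.46. Their limma adjusted p-values were 0.23 and 0.28.

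Some markers of mast cells, basophils, eosinophils and neutrophils differed between the tissues, some lower in liver and some higher. The 14 basophil and mast cell markers summed to 21493 to 32945 normalized counts in liver and 30305 to 37215 in bone marrow. Gata2 made up 10349 to 13513 of that sum in liver and 13502 to 14674 in bone marrow. Of 13 tested, 9 had a negative log2 fold change and 4 a positive one. With limma 1 was lower (Tpsb2), 1 higher (Prss34) and 11 did not pass, beside 0.594% and 0.420% of all genes. DESeq2 called 7 lower and 2 higher, beside 2.43% and 1.92% of all genes. At an unadjusted limma p under 0.05, 8 were lower and 2 higher, beside 8.04% and 7.65% of all genes. These shares also stand beside the counts of the next lists. The basophil protease gene Prss34 had 1243, 3701 and 2694 normalized counts in liver, against 193, 235.5 and 192 in bone marrow (log2 fold change 3.48, limma adjusted p = 0.016). Mcpt8, another basophil protease gene, had a log2 fold change of 0.89 (limma adjusted p = 0.38), and Hgf, which DESeq2 called, of 0.73 (limma adjusted p = 0.090). The mast cell protease gene Cpa3 had 493, 1251 and 1037 normalized counts in liver, against 2207, 5073 and 3717 in bone marrow (log2 fold change -2.01, limma adjusted p = 0.071). Fcer1a, the alpha chain gene of the IgE receptor, had a log2 fold change of -2.03 (limma adjusted p = 0.061). Tpsab1, Cma1, Hdc and Ms4a2, which DESeq2 also called lower, had log2 fold changes of -3.65, -1.86, -0.64 and -0.53. Their limma adjusted p-values were 0.15, 0.12, 0.12 and 0.27. The 9 eosinophil markers summed to 1278 to 1413 in liver and 2333 to 2566 in bone marrow, of which Siglecf alone gave 1080 to 1193 in liver and 2307 to 2524 in bone marrow. Of 3 tested, Siglecf was lower and Epx higher with limma, and Ear1 was at 0. The granule protein gene Prg2 had 60.3, 212 and 136 normalized counts in liver, against 24.2, 10.3 and 10.4 in bone marrow (log2 fold change 3.03, limma adjusted p = 0.053), and DESeq2 called it higher. The 12 markers of T, NK and innate lymphoid cells summed to 11588 to 12090 in liver and 10632 to 11477 in bone marrow, of which Nkg7 alone gave 11431 to 11742 and 10335 to 11140, and none of 5 tested passed with limma, edgeR or DESeq2 (1 higher and 1 lower at an unadjusted p under 0.05). The 9 neutrophil markers summed to 335 to 3266 in liver and 110 to 148 in bone marrow, with Mpo higher among 6 tested with limma and Ly6g at 0. DESeq2 called Mpo and Elane higher, and 3 were higher and 0 lower at an unadjusted limma p under 0.05. Elane had 33.6, 631 and 350 normalized counts in liver, against 14.4, 35.1 and 17.8 in bone marrow (limma adjusted p = 0.20). The 9 hepatocyte markers, nearly all of it Apoa1, summed to 2302 to 3018 in liver and 2667 to 5663 in bone marrow, and the 9 macrophage and Kupffer cell markers to 514 to 1484 and 880 to 1187, with none of 2 tested in each list passing with limma, edgeR or DESeq2 or at an unadjusted limma p under 0.05 (0 in each). The part of these cell type markers in the receptor differences was not tested.

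Tested genes with a pattern over the 6 libraries most like each receptor chain were ranked by the root mean square distance between log2 values centred on the gene's own mean, among 11591 named genes. For Il1rl1 the nearest were Neb, which encodes nebulin (0.192 log2 units), Csf2rb2 (0.194) and the ATP-gated channel gene P2rx7 (0.202). For Csf2rb2 they were Chst15 (0.131), P2rx7 (0.138) and Neb (0.138). The nearest to Il3ra were Ebi3 and Plscr4 (0.0942 each) and the TGF-beta receptor gene Tgfbr2 (0.0969), and the nearest to Il4ra was the channel gene Trpv2 (0.0794). Csf2rb lay closest to Hopxos (0.0489) and Hopx (0.0614), and Il18r1 to Fut4 (0.108).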

How the data were processed

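RNA of leukemia stem cells was sequenced from 3 liver and 3 bone marrow libraries. According to the labels' protocols, kits were RNeasy Plus for extraction and SMARTer with Nextera XT for libraries, a chemistry without strand information. The submitters' processing notes name STAR 2.6.0c, Trimmomatic 0.36, bcl2fastq 2.19.0, R 3.4.1 and DESeq2 1.16.1. Build, annotation and read counter: not given in the sources used here. Each deposited value is a signal, namely a read count scaled by the authors with a DESeq2 size factor, per the file's name. In each library 100% of values were whole multiples of 1 unit (tolerance 0.01), so reads could be recovered. Replicates of a tissue differed by more than sampling noise, with a chi-square per degree of freedom of 6.75 to 27.8, and all 6 libraries were kept.

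The deposited values were fitted as log2(normalized count + 1) by limma 3.58.1 under R 4.3.3, using a tissue term alone and a variance trend, over 14298 genes averaging 10 or more. Tests were two-sided with Benjamini-Hochberg adjustment over all of them, and an adjusted p under 0.05 counted as called. The log2(value + 1) scale understates the change of low genes. The members and gene lists were chosen with earlier results of these data known. The text names the 10 chains, the genes of each list that passed or else up to 4 with the smallest p, defining markers, and up to 5 genes of like pattern per chain. Jak2, Stat5a, Stat5b, Il13ra1, Il5ra, Il3, Il33, Il4, Il1b, Gata2, Mcpt8, Hgf, Tpsab1, Cma1, Hdc, Ms4a2, Elane, Hoxa9, Meis1 and Xist were named with their values seen. Alternatives were TMM and quantile normalization, pseudocounts of 0.5 and 10, a minimum mean of 50 or no minimum, edgeR 4.0.16, DESeq2 1.42.0, the replicate number as a term, leaving out libraries, and summing Csf2rb with Csf2rb2. Leaving out both libraries numbered 1 was chosen after seeing the data. Exon lengths are unions over GENCODE M21 basic transcripts. Promoter windows come from RefSeq, which matched 9 of the 10 chains. Coding sequences were aligned with biopython 1.88.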

Additional observations from a re-analysis of the deposited data

How the results depend on the processing

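Il1rl1, Csf2rb2 and Il4ra were called lower in liver with TMM factors, quantile normalization, both pseudocounts, both filters, edgeR and DESeq2. The chains called lower numbered 3 with all libraries, 5 with DESeq2, and 0 to 3 when 1 library was left out (0 without liver replicate 3 or any 1 bone marrow library). Without both libraries numbered 3 limma called 0, with 5 at an unadjusted p under 0.05. Il1rap had log2 fold changes from -0.11 to 0.076 over the fits that left out 1 library, 0.0031 with quantile normalization and 0.17 without both libraries numbered 1, Il18r1 -0.16 to 0.62, and Csf2ra -0.0098 to 0.22. Over all genes, 85 were lower and 60 higher, against 347 and 275 with DESeq2, 129 and 103 without both libraries numbered 1 (2 chains, Il1rl1 and Csf2rb2), 5 to 221 and 1 to 212 without 1 library, and 2 and 0 without both libraries numbered 3 (461 and 345 at an unadjusted p under 0.05). The causes were not tested. Same-numbered libraries of the tissues had deviations that correlated at 0.443, 0.399 and 0.0578 for numbers 1, 2 and 3. Liver replicate 3 correlated better with bone marrow replicate 2 (0.151), and the main fit did not pair samples by number. Xist and the Y-linked sums, in contrast, were alike between same-numbered libraries for every number. Because these values of replicate 3 lay between those of replicates 1 and 2, its low correlation cannot decide on a shared source. With the replicate block 5 chains were called lower, Il1rl1, Csf2rb2, Il4ra, Csf2rb (adjusted p = 0.049) and Il2rg (0.042), among 323 lower and 202 higher genes (2.26% and 1.41% of those tested). Of the 10 chains no other call changed under the block. Among other genes named, Il2ra (0.011), Tgfbr2 (0.033), Gab2 (0.023), Cish (0.027), Socs1 (0.030), Cpa3 (4.7e-05), Fcer1a (8.4e-04), Cma1 (0.023), Hdc (0.0020), Apoa1 (0.043), Ly6a (0.0051), Mcpt8 (0.0014), Hgf (0.027), Prg2 (0.030) and Elane (0.030) passed with it. Il6ra, on 14 and 3 reads, cannot be compared at this depth.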
